A study of Homo sapiens with 6 samples.

Results

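The 33 genes described here are spliceosomal small nuclear RNA (snRNA) genes measured in MDA-MB-231 cells, a triple-negative breast cancer line with mesenchymal features. They were chosen by annotation type and abundance: a gene had to be of type snRNA in GENCODE 44 on build hg38 and to have a mean raw count of at least 10 over the 6 libraries, controls and treated wells pooled for that mean. The count files hold 60675 genes, of which 1872 are of type snRNA, and 33 of these met the rule. The study cultured the line in 6-well plates and compared 3 control wells, given no vitamin C, with 3 wells given vitamin C (sodium ascorbate) at 100 µM for 3 days, with fresh medium every day. All 6 libraries came from this 1 line, for which the labels name no genetic change, and were made from total RNA after removal of ribosomal RNA. The comparison asks whether the treatment changed the transcriptome. The wells are separate cultures of 1 line, so that the p-values measure the spread between wells, which may be technical.

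Introns are removed by the spliceosome, whose RNA core is made of snRNAs, each packed with proteins into a small nuclear ribonucleoprotein (snRNP). U1 pairs with the start of an intron and U2 with its branch point, while U4, U5 and U6 enter together as the tri-snRNP, in which U4 holds U6 inactive until U6 replaces U1 and forms the catalytic centre with U2. A rare class of introns is removed by a minor spliceosome with U11, U12, U4atac and U6atac, and U7 acts outside splicing, in the trimming of histone mRNA. RNA polymerase II makes all of these but U6 and U6atac, which RNA polymerase III makes, and the human genome carries many copies and pseudogenes of every class.

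After vitamin C, 9 of the 33 snRNA genes fell and none rose at an adjusted p under 0.05 (edgeR quasi-likelihood test, Benjamini-Hochberg over 15061 genes). The 9 genes were of 4 classes, namely 5 of U1 (RNVU1-15, RNVU1-31, RNVU1-6, RNVU1-18 and RNU1-2), 1 of U4 (RNU4-2), 1 of U4atac (RNU4ATAC) and 2 of U5 (RNU5A-1 and RNU5B-1). Their log2 fold changes ran from −1.28 in RNU1-2 to −0.68 in RNVU1-15. Over all genes tested, 4.63% were called lower and 2.87% were called higher, so that 61.8% of calls were lower. With scaling factors taken over the tested genes only, 48.8% of calls over all genes were lower, and 8 of the 33 snRNA genes fell. At an unadjusted edgeR p under 0.05, 19 of the 33 were lower and 1 was higher, beside 15.5% and 12.4% of all genes. DESeq2 called 13 of the 33 lower and none higher, beside 5.6% and 3.86% of all genes. The 9 genes were called lower by both tools, as were 4.36% of all genes. The median log2 fold change of the 33 genes was −0.64, within a range of −1.69 to 0.73, beside −0.01 over all genes tested.

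**Figure D1:**
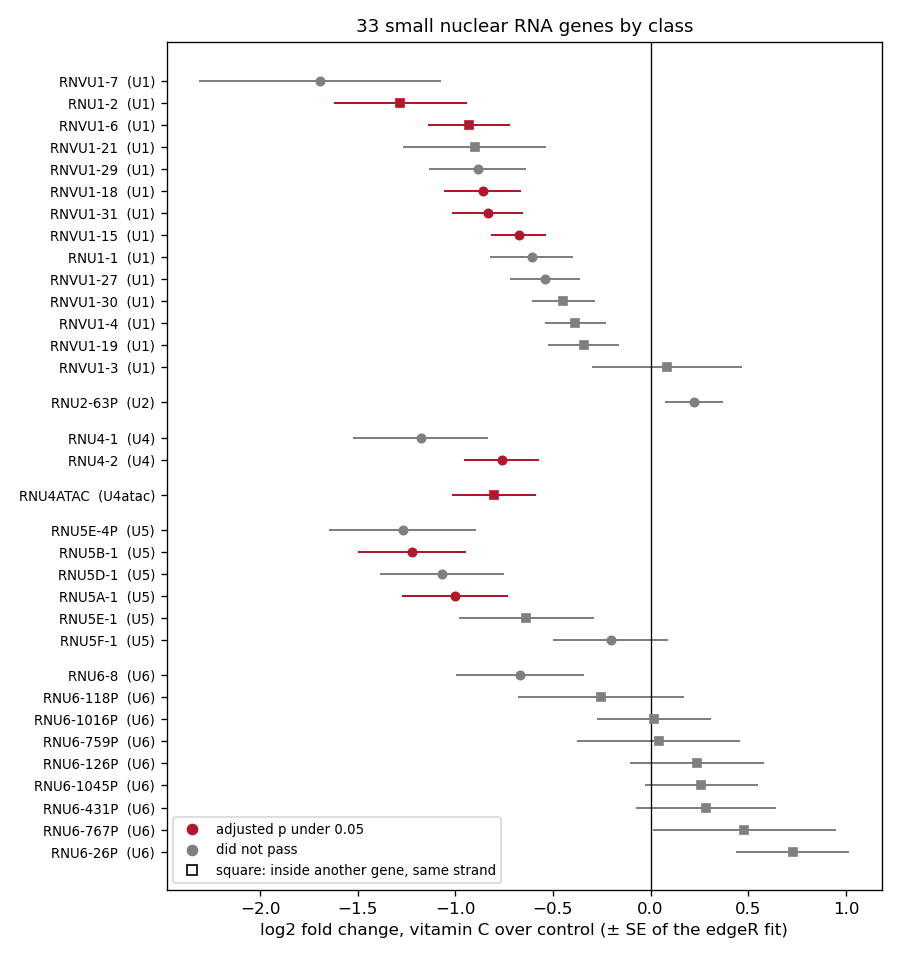
Log2 fold change of the 33 snRNA genes, vitamin C over control, grouped by class; points are the edgeR estimates, bars their standard errors (n = 3 wells per group), red marks an adjusted p under 0.05 and squares mark genes inside another gene of the same strand. All 9 red points lie left of zero, between −1.28 and −0.68, and 7 of the 9 U6 points lie right of it.

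Of the 33 genes, 15 had all their treated wells below all their controls, and in 1 gene, RNU6-26P, every vitamin C well lay above. Over all genes tested, 18.9% had all 3 vitamin C wells lower and 13.7% had all 3 higher. The U1, U4, U4atac and U5 genes numbered 23, of which 22 had a log2 fold change below zero, with a median of −0.84. Of the 9 U6 genes, 2 were below zero.

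The libraries held 13434130 to 22373591 gene counts, and the 33 snRNA genes took 6018 to 8538 of these. RNU2-63P alone held 58.6% to 77.6% of the members' counts. Read pairs that did not map made up 24.2%, 34.4% and 32.9% of controls 1 to 3. After vitamin C they made up 40.7%, 49.5% and 24.7% of wells 1 to 3. Markers of the line ranged as follows over the 6 libraries, in CPM, which are counts scaled to a common library size: VIM 1161 to 1327, CD44 944 to 1225, EPCAM 21.1 to 35.5, ERBB2 38.6 to 49.2 and CDH1 0.509 to 6.53. ESR1 had no count in any library, which allows up to 0.223 CPM in the shallowest, and PGR had 4 counts in vitamin C 3 and none elsewhere. PTPRC, a blood cell marker, reached at most 0.147 CPM, and PECAM1, an endothelial marker, lay between 0.566 and 2.16 CPM. Of the 6 markers tested, EPCAM rose by 0.64 on the log2 scale (edgeR adjusted p = 0.00520) and PECAM1 by 1.04 (edgeR adjusted p = 0.0470, DESeq2 0.0704), and neither the part of these markers nor that of the unmapped pairs in the results was tested. In RNA from a whole well, less snRNA in every cell and a smaller share of cells with a high level cannot be told apart.

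Every annotated class was searched, and most snRNA genes had no counts. Of the 1872 snRNA genes in the files, 1291 were at 0 in all libraries and 548 had counts but missed the rule. Members made up 14 of 145 U1 genes, 1 of 88 U2 genes, 2 of 96 U4 genes, 1 of 18 U4atac genes, 6 of 31 U5 genes and 9 of 1286 U6 genes. No gene of U6atac (41 genes), U7 (156), U11 (6) or U12 (2) met the rule. The lowest genes inside it were RNU6-126P with a mean count of 10.7, RNU6-767P with 11.5 and RNU6-118P with 11.7. The highest outside it were RNU6-945P and RNU6-890P with 7.5 each, a U1 gene with 7.33 and RNVU1-2 with 7.0.

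Several genes known to make working snRNAs were among those without counts, and a 0 in these files does not show that the RNA was absent. Pairs that mapped to several places, or overlapped several genes, were not assigned to a gene. RNU2-1, the U2 gene of the tandem array on chromosome 17, was at 0 in all libraries and has 11 exact copies in the build. RNU2-2P, RNU7-1 and RNU12 were at 0 and lie in annotated exons of other genes on the same strand (WDR74, C12orf57 and ENSG00000270022). RNU11 had 1 read, in control 2, and overlaps an exon of ENSG00000270103. RNU6ATAC had a mean count of 4 and RNU6-1, with 7 exact copies, of 5.67. Pairs assigned to several places made up 11.1% to 15.2% of the control libraries and 10.3% to 13.3% of the vitamin C libraries.

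U1 was the largest class, with 14 genes on chromosome 1. The RNA begins with a run that pairs with the 5′ splice site, and carries a site for the ring of Sm proteins further along. RNU1-1 (chr1:16514122-16514285, minus strand, hg38) carries the sequence that RNU1-2, RNVU1-18 and RNVU1-29 share in full, and the other lines show how far the called variant gene RNVU1-15 (chr1:144412576-144412740, plus strand) and the most abundant U1 gene, RNVU1-27 (chr1:148522601-148522765, plus strand), depart from it. Capitals mark the splice-site pairing run ACTTACCTG and an Sm-type run, which was searched on the transcript's strand as ATTTGTG, the form in U1, as ATTTTTG, the form in U4, or as ATTTTTTG, the form in U5.
RNU1-1: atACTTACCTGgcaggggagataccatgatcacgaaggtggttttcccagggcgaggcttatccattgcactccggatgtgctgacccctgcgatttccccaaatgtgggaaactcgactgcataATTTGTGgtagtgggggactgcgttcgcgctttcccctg
RNVU1-15: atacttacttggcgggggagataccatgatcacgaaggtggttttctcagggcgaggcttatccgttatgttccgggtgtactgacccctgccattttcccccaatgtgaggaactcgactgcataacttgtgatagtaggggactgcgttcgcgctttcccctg
RNVU1-27: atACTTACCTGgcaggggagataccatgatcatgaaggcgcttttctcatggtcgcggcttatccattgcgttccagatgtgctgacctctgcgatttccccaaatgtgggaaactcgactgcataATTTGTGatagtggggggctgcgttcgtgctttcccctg

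The pairing run was in 9 of the 14 U1 members, in 34.2% of all 146 annotated U1 genes and in 2.63% of all 1901 annotated snRNA genes. The 5 that lacked it differ from RNU1-1 within their first 11 bases, counted from 1 at the 5′ end of the RNA and written in DNA letters. RNVU1-15 has C9T, RNVU1-4 and RNVU1-30 have A3G, C4T and C8T, RNVU1-3 has C4T and C8T, and RNVU1-21 has A1C and C4A. The Sm-type run was in 11 of the 14, and in 25.9% of all annotated snRNA genes. Against RNU1-1, RNVU1-27 differed at 14 positions and RNVU1-15 at 18, while RNVU1-31 differed at 2 and RNVU1-6 at 15. A match is a description of the letters and not of a working site.

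Of the U1 genes, 5 fell and none rose, and 13 of the 14 had a log2 fold change below zero. RNVU1-15, a variant U1 gene, stood at 14.2, 13.0 and 12.1 CPM in the control wells and at 8.98, 6.59 and 8.94 CPM after vitamin C. The lowest control was well above the highest treated well. The group means were 13.1 ± 1.06 and 8.17 ± 1.36 CPM (SD, n = 3 each), or −0.68 (SE 0.14) on the log2 scale with an edgeR adjusted p of 0.0233. RNVU1-31 read 13.9, 12.5 and 8.52 CPM in the controls and 7.06, 5.88 and 6.58 CPM after vitamin C. Its control 3 lay nearest to the treated wells, without overlap. The change was −0.84 (SE 0.18) on the log2 scale, with an edgeR adjusted p of 0.0264.

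RNVU1-6, which lies in an exon of the lncRNA ENSG00000287190, read 8.26, 6.32 and 5.21 CPM in the controls and 2.65, 3.54 and 4.02 CPM after vitamin C. All treated wells were lower, at a log2 fold change of −0.93 (SE 0.21) and an edgeR adjusted p of 0.0308. RNVU1-18 read 7.30, 6.86 and 4.61 CPM in the controls and 3.61, 3.19 and 3.51 CPM after vitamin C. Its treated wells were close together and below every control, at −0.86 (SE 0.20) on the log2 scale with an edgeR adjusted p of 0.0310. RNU1-2, inside an intron of CROCC, was the least abundant of the called U1 genes. It read 2.38, 2.39 and 1.30 CPM in the controls and 0.589, 0.638 and 1.15 CPM after vitamin C, so that control 3 and vitamin C 3 nearly met. Its log2 fold change was −1.28 (SE 0.34, edgeR adjusted p = 0.0456). With a correction for GC content and length the adjusted p was 0.0515.

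RNVU1-27 and RNVU1-29 had values below zero that did not pass edgeR. The former read 28.5, 21.6 and 16.9 CPM in the controls and 12.5, 16.3 and 16.9 CPM after vitamin C, so that control 3 and vitamin C 3 met. Its log2 fold change was −0.54 (SE 0.18, edgeR adjusted p = 0.0811), and DESeq2 gave an adjusted p of 0.0341. RNVU1-29 read 16.7, 13.2 and 8.37 CPM against 6.11, 5.32 and 8.89 CPM, again with an overlap between control 3 and vitamin C 3. It changed by −0.89 (SE 0.25) with an adjusted p of 0.0516 in edgeR and 0.00523 in DESeq2.

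RNVU1-7, RNU1-1, RNVU1-21, RNVU1-30, RNVU1-4, RNVU1-19 and RNVU1-3 were named after their values were seen, and none passed edgeR. RNVU1-7, which differs from RNU1-1 at 1 position, had the lowest estimate, −1.69 (SE 0.62, edgeR adjusted p = 0.107), from counts of 24, 15 and 23 in the controls and 1, 12 and 2 after vitamin C. Its vitamin C 2 well lay far above its other treated wells. RNU1-1 changed by −0.61 (SE 0.21, edgeR adjusted p = 0.0957) without overlap between the groups. The estimates of RNVU1-21, RNVU1-30, RNVU1-4 and RNVU1-19 were −0.90, −0.45, −0.39 and −0.34. RNVU1-3 was the U1 gene with an estimate above zero, at 0.08 (SE 0.39).

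The 4 genes with the RNU1-1 sequence cannot be separated by reads that lie within them, and the build holds 9 places with that sequence. Their summed counts were 554, 575 and 351 in the controls and 180, 160 and 321 after vitamin C. In CPM the sums were 31.4, 25.9 and 17.6 against 13.2, 11.3 and 16.1. The means were 25.0 ± 6.93 and 13.6 ± 2.40 CPM (SD, n = 3 each), a log2 difference of −0.85. Since pairs that mapped to several places were not assigned, pairs wholly within the shared sequence would not be counted for any of the 4. The values of RNVU1-18 and RNU1-2 then rest on pairs that reach beyond it.

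Summed over the 14 genes, U1 stood at 131.6, 105.9 and 86.1 CPM in the controls and at 63.3, 69.9 and 73.1 CPM after vitamin C. The controls were spread over a wider range than the treated wells, and all lay above them. The means were 107.8 ± 22.8 and 68.8 ± 5.02 CPM, a log2 difference of −0.63.

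**Figure D2:**
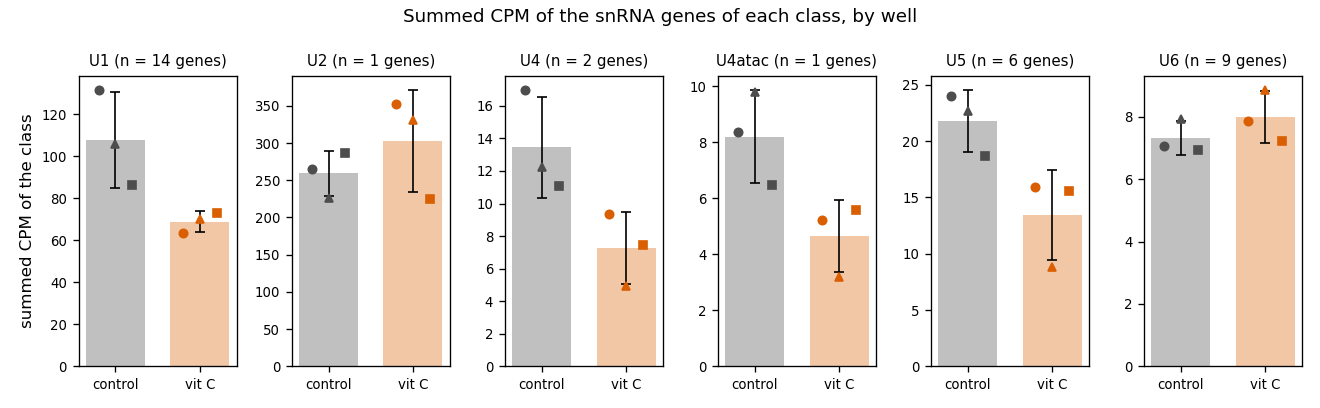
Summed CPM of the members of each U class; bars are means of 3 wells, error bars SD, and circles, triangles and squares are wells 1, 2 and 3 of each group. The U1, U4, U4atac and U5 sums lie lower in every vitamin C well than in every control well, and the U2 and U6 sums overlap between the groups.

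U4 pairs with U6 in the tri-snRNP, and its active genes RNU4-2 (chr12:120291763-120291903, minus strand) and RNU4-1 (chr12:120293097-120293237, minus strand) lie side by side. They are shown because they differ at 4 positions, and both begin with AGCTTTGCG, found in 0.631% of all annotated snRNA genes. Capitals mark the Sm-type run.
RNU4-2: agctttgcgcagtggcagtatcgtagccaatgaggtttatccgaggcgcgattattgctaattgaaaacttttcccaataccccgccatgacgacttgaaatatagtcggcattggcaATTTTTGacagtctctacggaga
RNU4-1: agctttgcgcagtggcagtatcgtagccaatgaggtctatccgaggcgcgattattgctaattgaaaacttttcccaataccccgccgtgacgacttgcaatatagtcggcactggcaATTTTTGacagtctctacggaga

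RNU4-2 fell from 9.23 ± 1.38 to 5.42 ± 1.47 CPM (SD, n = 3 each). Its wells read 10.8, 8.35 and 8.52 CPM in the controls and 6.84, 3.90 and 5.52 CPM after vitamin C. Every treated well was lower, with vitamin C 2 the lowest, and the log2 fold change was −0.76 (SE 0.19, edgeR adjusted p = 0.0400). RNU4-1 read 6.17, 3.93 and 2.56 CPM against 2.50, 1.06 and 1.96 CPM. These groups barely separated, between control 3 and vitamin C 1. Its log2 fold change was −1.18 (SE 0.34), with an adjusted p of 0.0587 in edgeR and 0.0167 in DESeq2. Per kilobase of gene, RNU4-2 stood at 65.4 CPM in the controls and RNU4-1 at 29.9 CPM.

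The minor spliceosome was represented by RNU4ATAC alone, which takes the part of U4 there. The gene (chr2:121530881-121531007, plus strand) lies inside CLASP1-AS1 on its own strand and inside CLASP1 on the other, and the former was too low to be tested. Capitals mark the Sm-type run.
RNU4ATAC: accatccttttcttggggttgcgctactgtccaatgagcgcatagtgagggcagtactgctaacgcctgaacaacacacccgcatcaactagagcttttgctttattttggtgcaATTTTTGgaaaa

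RNU4ATAC fell, from 8.38, 9.79 and 6.47 CPM in the controls to 5.22, 3.19 and 5.57 CPM after vitamin C. Control 3 and vitamin C 3 lay closest, without overlap. The means were 8.21 ± 1.67 and 4.66 ± 1.29 CPM (SD, n = 3 each), or −0.80 (SE 0.22) on the log2 scale at an edgeR adjusted p of 0.0470. With a correction for GC content and length the adjusted p was 0.0728. Its partner RNU6ATAC was too low to be tested.

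U5 holds both exons together through a loop that contacts each of them during splicing. The called genes RNU5A-1 and RNU5B-1, both on the plus strand of chromosome 15, differ at 7 positions, and RNU5F-1, on chromosome 1, differs from RNU5A-1 at 19. The Sm-type run was in 5 of the 6 U5 members.

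RNU5A-1 and RNU5B-1 fell, and no U5 gene rose. RNU5B-1 read 3.79, 3.34 and 2.11 CPM in the controls and 0.957, 1.42 and 1.51 CPM after vitamin C. Its groups did not overlap, and the log2 fold change was −1.22 (SE 0.28, edgeR adjusted p = 0.0308). RNU5A-1 read 3.79, 3.11 and 2.06 CPM in the controls and 1.10, 1.63 and 1.66 CPM after vitamin C. Control 3 lay nearest to the treated wells. The treated level was 0.499 of the control level in the fit (SE 0.27 on the log2 scale, edgeR adjusted p = 0.0480), and the adjusted p was 0.0699 with a correction for GC content and length and 0.0523 with scaling factors taken over the tested genes only.

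The other U5 genes did not pass edgeR. RNU5D-1 read 3.62, 3.65 and 2.56 CPM against 2.06, 0.638 and 1.91 CPM, with all treated wells lower. Its log2 fold change was −1.07 (SE 0.32), with an adjusted p of 0.0619 in edgeR and 0.0370 in DESeq2. RNU5E-1, in an exon of ENSG00000285646, read 5.21, 3.20 and 1.96 CPM against 1.69, 1.70 and 3.01 CPM, where vitamin C 3 lay above control 3. It changed by −0.64 (SE 0.35, edgeR adjusted p = 0.255). RNU5F-1, the U5 gene with the highest level per kilobase (61.6 CPM in the controls), read 5.32, 7.67 and 8.62 CPM against 8.98, 3.12 and 6.73 CPM. Vitamin C 1 was its highest well, and its change was −0.20 (SE 0.29, edgeR adjusted p = 0.691). RNU5E-4P, a pseudogene by its symbol that was named after its values were seen, lay lower in all treated wells, at −1.27 (SE 0.38, edgeR adjusted p = 0.0599). The U5 sum stood at 24.0, 22.7 and 18.7 CPM in the controls and at 16.0, 8.79 and 15.6 CPM after vitamin C, with means of 21.8 ± 2.76 and 13.4 ± 4.03 CPM and a log2 difference of −0.74.

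**Figure D3:**
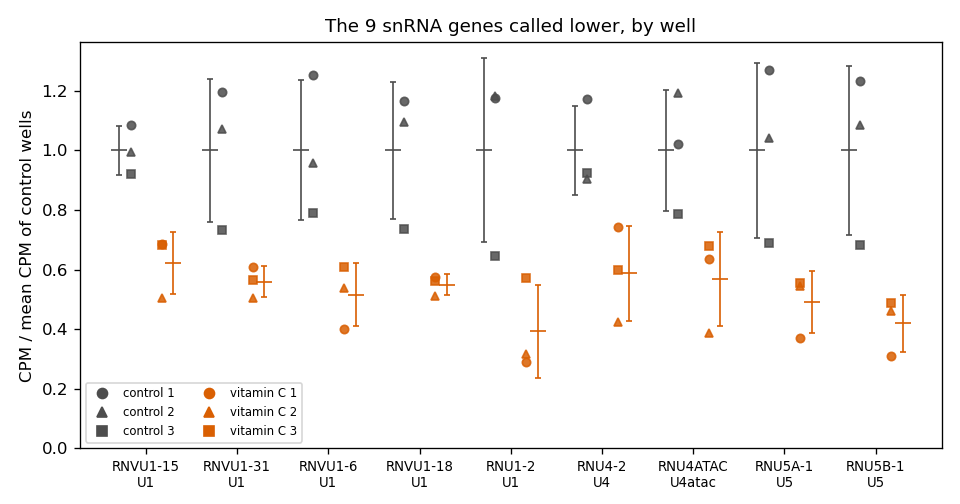
CPM of the 9 called snRNA genes in each well, divided by the mean of that gene's 3 control wells; horizontal bars are group means with SD, and symbols are wells 1, 2 and 3. No treated well of these genes reaches a control well, as in 18.9% of all genes tested. The genes were picked by their p on these same wells, which favours such a gap. Control 1 is the highest control in 7 of the 9 genes.

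U2 was represented by RNU2-63P (chr2:88016354-88016547, minus strand), a pseudogene by its symbol that differs at 44 positions from RNU2-1 (chr17:43233787-43233977, minus strand), with a longest shared stretch of 23 bases. Both are shown because RNU2-63P held most of the members' counts while lacking features of U2. Capitals in RNU2-1 mark the run GTAGTA, which pairs with the branch point and is in 3.58% of all annotated snRNA genes, and the Sm-type run. RNU2-63P had neither.
RNU2-63P: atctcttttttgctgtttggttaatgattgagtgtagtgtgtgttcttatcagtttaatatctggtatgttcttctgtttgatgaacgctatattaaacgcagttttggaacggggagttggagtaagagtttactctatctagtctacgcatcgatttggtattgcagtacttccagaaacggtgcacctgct
RNU2-1: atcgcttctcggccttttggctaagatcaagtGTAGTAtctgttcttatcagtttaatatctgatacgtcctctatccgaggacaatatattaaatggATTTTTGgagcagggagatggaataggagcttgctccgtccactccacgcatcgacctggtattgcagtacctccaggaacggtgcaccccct

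RNU2-63P read 265.7, 226.7 and 286.3 CPM in the controls and 353.0, 331.0 and 224.8 CPM after vitamin C. The groups overlapped, since vitamin C 3 was the lowest of all 6 wells. The means were 259.6 ± 30.3 and 302.9 ± 68.6 CPM (SD, n = 3 each), or 0.22 (SE 0.15) on the log2 scale at an edgeR adjusted p of 0.351. Per kilobase it stood at 1338 CPM in the controls, beside 135 CPM for the next gene, RNVU1-27. Without it, the other members summed to 188, 159 and 129 CPM in the controls and to 102, 95.7 and 109 CPM after vitamin C.

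U6, the catalytic snRNA, had 9 members, of which 8 are pseudogenes by their symbols and lie inside protein-coding genes on the same strand (among them SENP6, OSTC, DCBLD2, CPNE1, STX5, MPRIP and ALG8). RNU6-8 is the exception, and differs from RNU6-1 at 1 position. RNU6-26P, which was named after its values were seen, differs at 5 and lies in DCBLD2. The most abundant, RNU6-1016P, lies in SENP6 and differs at 30.

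No U6 gene passed edgeR in either direction, and at an unadjusted edgeR p under 0.05 there were 0 lower and 1 higher (RNU6-26P). None passed DESeq2, but RNU6-759P, RNU6-118P, RNU6-767P and RNU6-126P had no adjusted p there and could not pass. RNU6-8 read 1.42, 0.993 and 1.00 CPM in the controls and 0.589, 0.496 and 0.954 CPM after vitamin C. Its groups stood apart by little, at a log2 fold change of −0.67 ± 0.33 (SE) and an adjusted p of 0.208 in edgeR. RNU6-26P read 0.623, 0.677 and 0.702 CPM against 1.32, 0.851 and 1.15 CPM, the reverse order of RNU6-8. Its log2 fold change was 0.73 (SE 0.29, edgeR adjusted p = 0.133). RNU6-1016P ran from 1.19 to 1.70 CPM in the controls and from 0.954 to 1.84 CPM after vitamin C, with full overlap and a log2 fold change of 0.02 (SE 0.29). RNU6-431P, inside OSTC, had a log2 fold change of 0.28 (SE 0.36).

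The 8 U6 genes inside protein-coding genes had log2 fold changes from −0.25 to 0.73, with a median of 0.25 and 1 below zero. Reads from unspliced RNA of the surrounding gene would be counted with them if they mapped there, and this was not tested. Of the 8 surrounding genes tested, 1 fell (ALG8, −0.46, edgeR adjusted p = 0.0443) and none rose, with a median of −0.07. DCBLD2 had a log2 fold change of −0.09 (edgeR adjusted p = 0.495) beside the 0.73 of RNU6-26P within it. The U6 sum was 7.08, 7.94 and 6.92 CPM in the controls and 7.87, 8.86 and 7.23 CPM after vitamin C, an overlap.

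Over the classes, 17 of the 33 genes lay inside another gene of the same strand. These had 3 of the 9 calls and a median log2 fold change of −0.25. The 16 others had 6 of the calls, a median of −0.85, and 15 of 16 below zero. The difference between the 2 sets was not tested, and 8 of the 17 are U6 genes.

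Promoter letters upstream of the genes were compared as well. The octamer ATGCAAAT, a run found in snRNA enhancers, was searched on both strands of the 300 bases before each gene. It was there in 9 of the 33 members and in 4.37% of all annotated snRNA genes. The 9 were 5 of the 6 U5 genes, RNU4-2, RNU4ATAC, RNU6-8 and RNU2-63P, and no U1 member had it. The letters TATAA, which mark RNA polymerase III promoters of the U6 type, stood within 60 bases of the start of RNU6-8 and of no other member, beside 13.9% of all annotated snRNA genes.

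Other short genes were set beside the members. Column kits of the type used recover RNAs under 200 bases poorly, and all 33 members are 94 to 194 bases long. Of 100 other tested genes with up to 200 exonic bases, 2 were called lower and 1 higher, beside 4.63% and 2.87% of all genes. Their median log2 fold change was −0.11. Among these, 40 small nucleolar RNAs gave 1 call lower (2.5%) and none higher, 28 of 40 below zero and a median of −0.33. At an unadjusted edgeR p under 0.05, 9 of the 40 were lower and 1 was higher, beside 15.5% and 12.4% of all genes. All treated wells were lower in 10 of the 40 and higher in 2, beside 18.9% and 13.7% of all genes. These values are changes between the groups and do not measure how well short RNAs were recovered. With a correction for GC content and annotated length, 6 of the 33 snRNA genes were called lower, beside 9 without it. Their median log2 fold change was then −0.56, beside −0.64. The part of RNA length alone in the snRNA values was not tested.

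The calls changed with the wells included. Control 1 was the highest control in 21 of the 33 genes, and the lowest treated well was vitamin C 1 in 13 and vitamin C 2 in 15. Control 1 also had the lowest share of unmapped pairs (24.2%), and vitamin C 1 and vitamin C 2 the highest (40.7% and 49.5%). Whether mapping had a part in these values was not tested. Without control 1 or without control 2, no snRNA gene was called lower by edgeR, and without vitamin C 1 or without vitamin C 2 there were 2. Without control 3 there were 11, and without vitamin C 3 there were 12, 10.2% of all genes being lower in the latter fit. At an unadjusted edgeR p under 0.05, 13 were lower without control 1 and 18 without control 2, beside 9.84% and 11.5% of all genes in those fits. DESeq2 called 0 and 4 of them lower there, beside 1.35% and 2.55% of all genes. Over all genes, the 698 calls lower became 57, 49, 168 and 271 without control 1, control 2, vitamin C 1 and vitamin C 2, and 325 and 1525 without control 3 and vitamin C 3. All 9 called genes had a log2 fold change below zero in each of the 15 settings run. They were chosen as lower in these same wells, and every treated well of each gene lay below its controls. The constant sign is therefore no further support. Without a filter on low counts 15 snRNA genes were called lower, and the calls over all genes became 1166 lower and 1079 higher, 3.45% and 3.2% of 33769 genes.

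**Figure D4:**
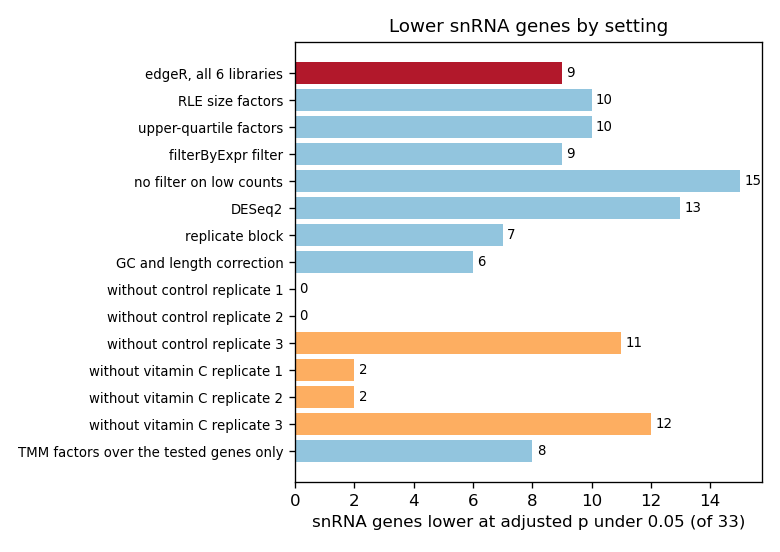
Number of the 33 snRNA genes called lower at an adjusted p under 0.05 in each of the 15 settings; the red bar is the result as reported, orange bars leave out 1 library each and blue bars change another choice. The count runs from 0 without control 1 or control 2 to 15 without a filter on low counts.

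The genes of proteins that build and use the snRNPs were grouped into lists by role. Of 54 snRNP protein genes 53 were tested, of which 9 fell and 1 rose, beside 4.63% and 2.87% of all genes, with a median log2 fold change of −0.11 beside −0.01. Of the Sm ring genes, SNRPD1, SNRPE and SNRPF fell, while SNRPB (−0.18), SNRPD2 (−0.38), SNRPD3 (−0.11) and SNRPG (0.45) did not pass. Of the ring on U6, LSM4 and LSM6 fell, and LSM2 (0.13), LSM3 (−0.07), LSM5 (−0.44), LSM7 (−0.09) and LSM8 (0.08) did not pass. SNRPF, LSM4 and the ring genes that did not pass were named after their values were seen. SNRPD1 stood at 220.7 ± 12.4 CPM in the controls and 165.4 ± 4.92 CPM after vitamin C, a change of −0.42 (edgeR adjusted p = 0.0133). LSM6 changed by −0.61 (adjusted p = 0.0320) and SNRPE by −0.55 (adjusted p = 0.0327). SNRNP27, a tri-snRNP protein, rose by 0.82 (adjusted p = 0.0164), from 53.0 ± 10.3 to 94.0 ± 17.9 CPM.

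Of 30 genes for snRNA transcription and 3′ end formation, 1 fell and none rose, which is 3.33% lower beside the 4.63% of all genes. DESeq2 gave the same counts, beside 5.6% and 3.86% of all genes, and 9 were lower and 2 higher at an unadjusted edgeR p under 0.05, beside 15.5% and 12.4%. The called gene was SNAPC1, a subunit of the complex that binds snRNA promoters, at −0.43 (edgeR adjusted p = 0.0161), and the list's median was −0.11. Of 30 genes for maturation and assembly, 4 fell and none rose, a share of 13.3% lower beside 4.63% of all genes, with a median of −0.12. DESeq2 called 6 lower and none higher, and 11 were lower and none higher at an unadjusted edgeR p under 0.05, beside the same shares of all genes as before. They were CLNS1A, which brings Sm proteins together (−0.35, adjusted p = 0.0196), GEMIN4, of the SMN complex (−0.59, adjusted p = 0.0234), NCBP1, of the cap-binding complex (−0.32, adjusted p = 0.0319), and XPO1, an export receptor (−0.31, adjusted p = 0.0442).

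Of 11 genes of the U7 snRNP and histone mRNA processing, 3 fell and none rose, and no U7 RNA gene could be tested. The 3 are 27.3% of the list, beside 4.63% of all genes. DESeq2 called 3 lower and 1 higher, beside 5.6% and 3.86% of all genes, and 5 were lower and 1 higher at an unadjusted edgeR p under 0.05, beside 15.5% and 12.4%. They were SLBP, the histone stem-loop binding protein (−0.39, edgeR adjusted p = 0.0233), ZNF473 (−0.51, adjusted p = 0.0233) and ERI1, an exonuclease (−0.32, adjusted p = 0.0343). The guides for snRNA modification in Cajal bodies, the scaRNAs, had 4 genes with enough counts. SCARNA7 fell to 0.498 of its control level in the fit (adjusted p = 0.0127), from 34.4, 32.3 and 24.8 CPM in the controls to 15.4, 11.3 and 18.5 CPM after vitamin C. SCARNA13, SCARNA21 and SCARNA22 did not pass, at −0.59, −0.35 and 0.12.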

How the data were processed

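RNA was extracted with a silica column kit, depleted of ribosomal RNA and sequenced as 125 bp pairs. The submitters' processing notes name CASAVA 1.4 for base calling, Trim Galore for trimming and STAR for alignment to hg38. The authors deposited 1 file of raw, unscaled counts of read pairs per Ensembl gene for each library. For the STAR version, annotation release and strand setting, the sources used here give nothing. The 4 summary lines of each file (unmapped, multimapping, unassigned and ambiguous pairs) entered neither library sizes nor tests. Each library's group and number were read from its title. A table of the whole series was not used.

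Types, positions and sequences came from GENCODE 44 and its hg38 genome, where 56558 of 60675 identifiers were found. Each snRNA gene was put in a class by its symbol. Genes with a mean count of at least 10 over the 6 libraries, 15061 in all, were tested in R 4.3.3 with edgeR 4.0.16 (TMM factors, 0.988 to 1.02, glmQLFit and glmQLFTest, Benjamini-Hochberg over all tested genes). DESeq2 1.42.0 was the second tool. The biological coefficient of variation was 9.45%. No 2 libraries of the same group held the same counts within counting noise (chi-square over its degrees of freedom, 5.08 to 24.5). CPM are counts over TMM-scaled library sizes, standard errors come from the F statistic, and class sums and list medians were not tested. The script was tested on simulated data. Alternatives were other scaling factors, other filters, DESeq2, a GC and length correction, a replicate block, and leaving out each library. The count of calls without RNU2-63P, which used the reported fit, and the TMM factors over tested genes only were chosen after seeing the data.

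The text names every called member, the 3 most abundant of each class, the U4, U4atac and U5 genes that are not pseudogenes by symbol, and in each list up to 4 called genes with the smallest p. Other genes were named after their values were seen. The members, lists and tests were chosen with earlier results of these data known, including that several snRNA genes were lower, so that no pattern here is independent support. A strand-blind count cannot separate a member from a gene on the other strand, and floors and intervals cover counting error only. Some sequences and 1 gene that surrounds a member are not reported here.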

Additional observations from a re-analysis of the deposited data

How the results depend on the processing

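The number of snRNA genes called lower (9) stayed within 1.5 times of that value under RLE or upper-quartile factors, the filterByExpr filter, DESeq2, the correction for GC content and length (6) and TMM factors over the tested genes only (8). Members with a mean count of at least 30 held 8 calls, and the members without RNU2-63P held 9. Neither was a new fit. The count rule drops the called RNU1-2, and RNU2-63P was not called, so both counts follow from the reported result. With the replicate number as a block the number called lower was 7, and 6 of the 9 genes kept their call (not RNU4ATAC, RNU5A-1 or RNU1-2). Over all genes, the 698 calls lower became 751 with the GC and length correction. They became 520 with TMM factors over the tested genes only and 367 with the block. Wells of the same number did not deviate together (correlations of −0.02, −0.06 and −0.04), so the numbers were not taken to pair them. Without a filter on low counts 15 were called, with 7 maturation genes lower, 3 scaRNAs lower, 3 snRNP protein genes higher and 1 U7 gene higher, and the last was also 1 with DESeq2. Among genes inside no gene of the same strand the median log2 fold change was −0.85 and the U6 sum, then RNU6-8 alone, differed by −0.78. Leaving out 1 library at a time gave 0 to 12 snRNA genes lower and 0 to 1 higher, 0 to 11 lower and 0 to 1 higher by both tools, and medians from −0.72 to −0.40. It gave 0 to 14 snRNP protein genes lower and 0 to 3 higher, 0 to 7 maturation genes lower, 0 to 4 transcription genes lower, 0 to 3 U7 genes lower and 0 to 1 higher, and 0 to 2 scaRNAs lower. The share of all genes that edgeR called lower ran from 0.328% without control 2 to 10.2% without vitamin C 3. Each of these fits has 1 well fewer, and the cause was otherwise not tested. Low counts limit the U6 genes, most of which had a mean count under 20 per library.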
